A study of Mus musculus with 904 samples.

Results

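The cytoplasmic ribosome is built from a small subunit, whose proteins carry Rps names, and a large subunit, whose proteins carry Rpl names. The genes described here were taken by symbol: every Rps or Rpl symbol followed by a digit, with Rplp0, Rplp1, Rplp2 and Rpsa, leaving out pseudogenes and the Rps6k kinase genes. The rule found 86 of the 32285 genes in the count table, 34 for the small subunit and 52 for the large one, spread over 19 chromosomes. It reads names only, so it also took Rps19bp1, named for binding Rps19, and the paralogs Rpl3l, Rpl7l1, Rpl10l, Rpl22l1, Rpl36al, Rpl39l, Rps27l and the single-exon copy Rps27rt. It did not take Fau, which encodes a ribosomal protein fused to a ubiquitin-like protein, or Rack1.

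Each library held the poly(A) RNA of 1 flow-sorted nucleus, amplified with the full-length SMART-Seq v4 method and without molecular identifiers. The labels describe C57Bl/6J mice, injected in young adulthood with 5e11 viral genomes per mouse of a PHP.eB adeno-associated virus, a capsid that reaches the brain from the blood. Nuclei were sorted 3 to 4 weeks later for a nuclear fluorescent reporter driven by the DLX2.0 enhancer. All 16 constructs shared that enhancer and an H2B histone tag, and no uninjected animal was among the samples analysed. The constructs were dTomato-H2B, SYFP2-10aa-H2Bmod-BC, SYFP2-P2A-3XFLAG-H2B, the same with SIRLOIN, and 12 in which SYFP2-H2B-BC carried 1 of 6 RNA elements (BORG, 3xBORG, U7snRNAOPT, U7snRNAOPT-3'box, 3xU7snRNAOPT, 3xsmOPT) before or after the SYFP2-H2B part. No label named an animal, so nuclei of 1 construct, library pool and class were summed into 1 sample, and p-values measure the spread between such sums, which may be technical. The construct in a sample's title and its treatment code (16 of each) did not pair up: each construct was spread over 4 to 5 codes and each code over 3 to 9 constructs. Titles were used here.

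Of 904 nuclei, 835 had at least 1000 genes and 10000 reads, and 69 were left out. The kept nuclei held 30023 to 719419 reads (median 260274) and 1006 to 10402 genes (median 2789). They came from 3 pools: 106 from S40317, 367 from S40325 and 362 from S40327. S40317 stood apart: 58 of its nuclei drew more than 0.3% of their reads from the mitochondrial genome (mt- genes), against 14 in S40325 and 15 in S40327. No library had the counts of another. Classes were set by counts per 1000000 reads (CPM) of marker genes, and the 626 nuclei meeting exactly 1 rule were compared: 214 in the Rgs9 class, 114 Sst, 92 Pvalb, 134 Slc17a7, 35 Aqp4 and 37 Mog. The labels give primary visual cortex for every nucleus. The Rgs9 class went against that label: 7 of 8 striatal projection neuron markers had reads in at least 25% of its nuclei, with a median summed level of 7686 CPM, while excitatory cortical markers had a median of 0. The series' design text also names striatum as a sorted region. In the other classes the markers went with the class: all 7 Sst, 7 Pvalb and 7 excitatory markers and all 6 oligodendrocyte markers passed that share in the Sst, Pvalb, Slc17a7 and Mog classes, and 5 of 6 astrocyte markers in the Aqp4 class. Each list includes the gene that set its class, which passes by rule. The Rgs9 rule also caps Slc17a7, an excitatory marker. The Sst and Pvalb lists share Lhx6, Sox6, Gad1 and Gad2.

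Ribosomal proteins are made in the cytoplasm, carried into the nucleus and joined to ribosomal RNA in the nucleolus. Their mRNAs are among the most abundant in a cell, but in a nucleus only new transcripts and those awaiting export are found, so a library from a nucleus holds few of them. Most ribosomal protein mRNAs begin with a 5′ terminal oligopyrimidine (TOP) tract, a C followed by a run of pyrimidines, through which mTOR signalling sets their translation. Translation factors such as Eef1a1 and Eef2 and the fused gene Fau share this tract.

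The start of transcription is shown for some members, because a shared start is what the family is known for. RefSeq promoter entries (build GRCm38.p6) matched 66 of the 86 members, with 78 windows of 30 bases, 15 before the annotated start and 15 from it on. Capitals mark CTTTC, a simple pyrimidine string that was searched on both strands. The windows below are examples chosen after the search, 6 with the string and 3 without it, so their proportion is not that of the family.

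Rpl15: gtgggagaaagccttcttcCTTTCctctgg
Rpl38: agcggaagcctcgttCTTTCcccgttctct
Rplp2: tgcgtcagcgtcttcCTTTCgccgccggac
Rps27: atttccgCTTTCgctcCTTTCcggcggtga
Rpl35: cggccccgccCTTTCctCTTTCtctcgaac
Rps27rt: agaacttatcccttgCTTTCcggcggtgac
Rplp0: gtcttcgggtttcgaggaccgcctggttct
Rps2: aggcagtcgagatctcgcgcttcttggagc
Rps3: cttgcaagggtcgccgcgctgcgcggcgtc

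These windows lie at chr14:18270972-18271001 (Rpl15, minus strand), chr11:114668565-114668594 (Rpl38, plus), chr7:141447636-141447665 (Rplp2, plus), chr3:90213634-90213663 (Rps27, minus), chr2:39005117-39005146 (Rpl35, minus), chr9:114982725-114982754 (Rps27rt, minus), chr5:115559452-115559481 (Rplp0, plus), chr17:24720048-24720077 (Rps2, plus) and chr7:99483695-99483724 (Rps3, minus). CTTTC stood on the transcribed strand of 18 of 78 member windows, 23.1%, against 4.04% of 32817 windows of the same length over all promoters. On the other strand the shares were 3.85% and 3.60%. The longer string CTTTCC, which contains CTTTC, stood in 14.1% of member windows and 1.41% of all. In Rpl38, Rplp2 and Rps27rt the string begins at the annotated start, while Rplp0, Rps2 and Rps3 show no CTTTC in the window. A match is a string of letters and says nothing of where transcription began in these nuclei.

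Member reads were 0.365% of all reads in the kept nuclei. A nucleus gave a median of 2911 CPM summed over the members (364.7 to 16188) and reads for a median of 21 members (3 to 83). Of the 86 members, 3 had reads in more than 50% of the nuclei: Rpl41 (59.6% of nuclei), Rpl6 (57%) and Rps27rt (50.3%). The median member had reads in 29.6% of nuclei. The sum was not carried by a few genes, since the top 5 members by reads held 14.1% of member reads.

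Per kilobase of exon, the highest members were Rpl36 at 109 RPKM (reads scaled to exon length and to the total reads), Rps15 at 102, Rplp1 at 100.02, Rpl41 at 96.2 and Rpl38 at 87.8, against a median member of 22.1 RPKM. Rplp1 encodes an acidic protein of the large subunit's stalk, where elongation factors bind, and Rpl41 a very short basic peptide. Whether reads in introns were counted is not given in the sources used here, and such reads would raise the RPKM of genes with long introns. The lowest 5 were Rpl10l with 0 RPKM, Rpl39l at 0.0538, Rpl3l at 0.858, Rps15a at 4.35 and Rpl23a at 4.62. Rpl10l, known as a testis-expressed copy of Rpl10, had no read in any of the 835 nuclei. Rpl39l had 10 reads, all in 1 nucleus, and Rpl3l, known from striated muscle, had 315 reads in 11 nuclei. Their parent genes were present: Rpl10 had reads in 31.4% of nuclei, Rpl39 in 17.1% and Rpl3 in 37.4%. Rps27rt is near-identical to Rps27 and had 742 reads over 420 nuclei, under 2 reads per nucleus with a read, at 2.31 to 2.90 CPM in every class. Reads of such copies may be split or misplaced between them, so single-copy values of Rps27, Rps27rt and Rpl36al are uncertain.

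The summed level differed little between classes in S40325 and S40327, where the median nucleus held 2850 CPM in the Rgs9 class, 2921 in Sst, 2692 in Pvalb, 2668 in Slc17a7, 2600 in Aqp4 and 2611 in Mog. Each class spanned a wide range, from 531.1 to 6912 CPM in the Rgs9 class and from 738.2 to 6262 CPM in the Mog class, and all 6 overlapped. What did differ between classes was how many members made up that sum. Neuronal nuclei had reads for a median of 19 (Rgs9), 23 (Sst), 22 (Pvalb) and 22 (Slc17a7) members, astrocyte-marker Aqp4 nuclei for 12.5 and oligodendrocyte-marker Mog nuclei for 10. With each nucleus thinned to 100000 reads the medians were 18, 22, 21, 21.5, 12 and 9, so the lower glial numbers stood at equal depth. The highest member of a nucleus held a median of 14.8% of its member reads in the Sst class, 21.7% in Aqp4 and 27.9% in Mog. The number of all genes detected moved the same way, from a median of 3452 in Slc17a7 to 1608 in Aqp4 and 1144 in Mog nuclei, and its part in the count of members was not tested.

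**Figure D1:**
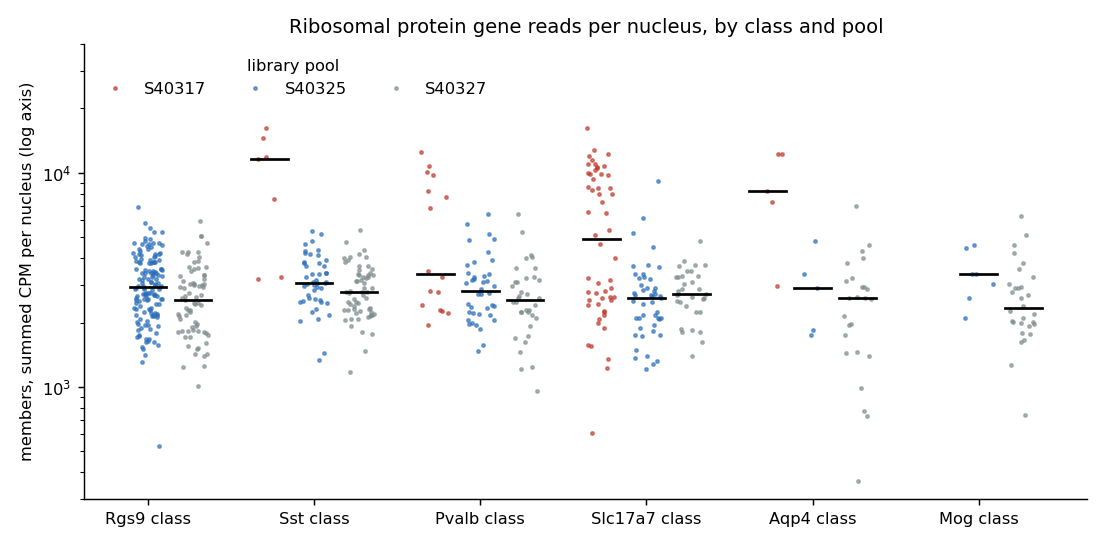
Summed ribosomal protein gene level of each nucleus (CPM, log axis) by class and library pool, with 1 point per nucleus and a bar at the median. In pools S40325 and S40327 the class medians lie between 2327 and 3366 CPM, while S40317 nuclei of the Sst, Pvalb, Slc17a7 and Aqp4 classes reach above 10000 CPM.

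Single members varied more than their sum. The following class levels are pooled CPM, the summed reads of a member over the summed reads of all genes in the nuclei of a class. They cover nuclei at or below 0.3% mt- reads in S40325 and S40327, 207 in the Rgs9 class, 107 Sst, 76 Pvalb, 79 Slc17a7, 28 Aqp4 and 36 Mog. Rps2, a small-subunit protein near the mRNA entry site, stood at 41.3 CPM in Rgs9, 62.4 in Sst, 52.2 in Pvalb and 58.2 in Slc17a7 nuclei, against 2.67 in Aqp4 and 13.4 in Mog nuclei. Rpl22l1, the paralog of Rpl22, was at 26.4 to 36.3 CPM in the 4 neuronal classes and at 2.80 CPM in Aqp4 nuclei. Rpl39, which lines the exit tunnel for the new peptide, was at 6.06 to 17 CPM in 5 classes and had no read in the 36 Mog nuclei, which allows a share of nuclei with a read of up to 8.33%. Rpl6 was at 107 to 153 CPM in the neuronal classes, 106 in Aqp4 and 47.8 in Mog nuclei. In the other direction Rps3, a small-subunit protein that also acts in DNA repair, was at 38.3 to 61.7 CPM in neuronal classes, 79.7 in Aqp4 and 102 in Mog nuclei. Rplp0, the base of the stalk, was at 39 CPM in Rgs9 and 117 in Mog nuclei. The Mog class held both the most members at their highest level (18 of 86) and the most at their lowest (30). Mog and Aqp4 nuclei were also the fewest and those with the fewest genes detected, and the part of this in the extremes was not tested. Such pooled levels alone do not tell fewer nuclei with reads from less RNA per nucleus. Rps2 had reads in 30.4% to 49.4% of nuclei in the neuronal classes, 7.14% in Aqp4 and 11.1% in Mog. The high pooled Mog levels of Rps3 and Rplp0 came from 22.2% and 16.7% of the 36 nuclei. In the neuronal classes these shares were 20.3% to 22.4% and 15.5% to 31.6%. A nucleus without reads may still hold the RNA.

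Classes were compared by edgeR's quasi-likelihood test on sums of at least 3 nuclei of 1 construct, pool and class, within construct and pool (a block). Adjusted p-values are by Benjamini-Hochberg over all 13048 genes tested. The shares of all genes called that are given below are edgeR's at an adjusted p under 0.05. Counts of members by DESeq2 or at an unadjusted p have no such share beside them. No excess over all genes can be read from those counts. Of the 86 members 82 passed the filter on low counts. Rpl3l, Rpl10l, Rpl39l and Rps27rt did not.

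The Rgs9 class minus the Slc17a7 class, over 7 blocks holding both, gave 0 called members of 82 in edgeR, where 1.41% of all genes were called. At an unadjusted p under 0.05 there was 1 member, and DESeq2 called 1. The median member difference was 0.38 on the log2 scale beside 0.08 over all genes, with 58 members (70.7%) and 52.3% of all genes above 0. Within pools that median was -0.14 in S40325 and 0.83 in S40327. Rpl31, a protein at the exit tunnel's rim, had the smallest p: the Rgs9 sums held 39.4 to 152 CPM (median 75.6) and the Slc17a7 sums 0 to 82.5 CPM (median 27.7). Rpl31 was higher in 6 of 7 blocks with overlapping groups, log2 difference 3.31 (SE 1.54), edgeR adjusted p = 0.395. Rpl7a (log2 2.56) and Rpl28 (log2 1.98) came next, with edgeR adjusted p = 0.691 and 0.786.

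For the Sst class minus the Slc17a7 class, over 10 blocks, edgeR called 0 members while it called 2.97% of all genes. There were 2 members at an unadjusted p under 0.05, and DESeq2 called 2. The members' median was 0.14 beside -0.22 over all genes, and it was -0.47 within S40325 and 0.45 within S40327. Rps27l, the p53-inducible paralog of Rps27, was at 0 in 8 of 10 Sst sums (highest 33 CPM) and in 5 of 10 Slc17a7 sums (highest 89.7 CPM). It was lower in 4 blocks and higher in 2, with a log2 difference of -4.60 (SE 2.15) and an edgeR adjusted p = 0.333. Rps19bp1 (log2 -4.22) and Rpl7a (log2 2.23) had edgeR adjusted p = 0.388 and 0.65.

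The Pvalb class minus the Slc17a7 class, over 11 blocks, likewise gave 0 called members in edgeR, beside 3.71% of all genes. Here 2 members had an unadjusted p under 0.05 and DESeq2 called 2. The members' median of -0.27 lay next to the -0.29 of all genes, and the within-pool medians were -1.01 in S40317, -0.32 in S40325 and -0.18 in S40327. In S40317 the summed member level of Pvalb and Slc17a7 sums was 2770 and 8599 CPM for 3xBORG-SYFP2-H2B-BC and 7948 and 2925 CPM for BORG-SYFP2-H2B-BC. For SYFP2-H2B-3xsmOPT-BC it was 2815 and 2163 CPM. In that pool 7 of 16 Pvalb and 28 of 54 Slc17a7 nuclei were above 0.3% mt- reads. Rps23, a decoding-centre protein of the small subunit, was at 0 in 7 of 11 Pvalb sums (highest 24.8 CPM) and at a median of 15.5 CPM in the Slc17a7 sums (0 to 64.8). It was lower in 7 blocks and higher in 3, log2 difference -4.66 (SE 1.83), edgeR adjusted p = 0.172. Rps18 stood at 0 to 110 CPM in Pvalb sums (median 7.35) and at 26.2 to 150 CPM in Slc17a7 sums (median 57.4), lower in 9 of 11 blocks, with an edgeR adjusted p = 0.318.

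Between the interneuron classes, Sst minus Pvalb over 9 blocks, edgeR called 0 members and 0.552% of all genes. Again 2 members were under an unadjusted p of 0.05 and DESeq2 called 2. The members' median was 0.53 beside 0.09, and 0.06 within S40325 and 0.67 within S40327. Rps27l had 17 reads over the Sst sums (0 in 8 of 9) and 386 over the Pvalb sums (0 in 3 of 9, highest 78 CPM). It was lower in 6 blocks and higher in 0, log2 difference -6.10 (SE 2.11), edgeR adjusted p = 0.213. Rps18 was the reverse, at 48.4 to 166 CPM in Sst sums and 0 to 110 CPM in Pvalb sums, higher in 7 of 9 blocks, with an edgeR adjusted p = 0.544. The low Rps18 and Rps23 values of the Pvalb sums enter both comparisons, which share those sums.

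The glial classes were each compared with Slc17a7 over 3 blocks, sharing Slc17a7 sums, with 7 Aqp4 and 6 Mog sums in the fit. For Aqp4 minus Slc17a7 edgeR called 5 members, all lower, while it called 23.1% of all genes, 20.8% lower. The members' median difference was -0.58 beside -2.95 for all genes. With edgeR's RLE scaling in place of TMM these medians were -0.13 and -2.86, and 37 in place of 26 members were above 0. With TMM, 31.7% of the members and 22.5% of all genes were above 0. The summed member CPM did not follow the negative median: it was higher in Aqp4 in 2 of 3 blocks, with a mean log2 ratio of 0.58 (SD 1.21). Rpl3, a protein reaching the peptidyl transferase centre, had 0 reads in all 3 paired Aqp4 sums and 5.40, 51.8 and 91.7 CPM in the Slc17a7 sums of the same blocks, so the groups did not overlap. That is at least 40.2-fold lower against a floor of 3 counts over the group (edgeR adjusted p = 0.00071), and all 7 Aqp4 sums of the fit were at 0. Rpl3 reads do occur in Aqp4 nuclei, at a pooled level of 37.2 CPM in S40325 and S40327. They were in 10.7% of 28 nuclei, all in nuclei outside the sums of the fit. Rps2 had 0 reads in the 3 paired Aqp4 sums and 20.1, 26.8 and 145 CPM in the Slc17a7 sums, at least 77.1-fold lower (edgeR adjusted p = 0.0063). Over all 7 Aqp4 sums Rps2 had 3 reads, and over all 14 Slc17a7 sums 1888.

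The other 3 rest on fewer sums. Rpl8 was at 0 in the 3 paired Aqp4 sums and at 0, 74.2 and 96.8 CPM in the Slc17a7 sums, at least 61.7-fold lower (edgeR adjusted p = 0.0245). However, 2 of the 7 Aqp4 sums held 194 Rpl8 reads, and the pooled class levels were 23.6 CPM in Aqp4 and 45.5 CPM in Slc17a7 nuclei. Rpl7l1, a paralog of Rpl7 known from the making of the large subunit, was at 0 in all 7 Aqp4 sums and at 2.88, 61.8 and 77.6 CPM in the paired Slc17a7 sums, at least 53.5-fold lower (edgeR adjusted p = 0.0247). The pooled class levels of S40325 and S40327 did not show this: Rpl7l1 stood at 31.6 CPM in Aqp4 nuclei, with reads in 3.57% of 28 nuclei, none of them in the sums, and at 29.6 CPM in Slc17a7 nuclei. Rpl4 had 6 reads in the paired Aqp4 sums, 2.10 CPM pooled, against 39.1, 56 and 441 CPM in the Slc17a7 sums (edgeR adjusted p = 0.0273). Leaving out 1 block at a time, Rpl3 and Rps2 kept their calls (edgeR adjusted p 0.00252 to 0.00337 and 0.012 to 0.0237), while Rpl4 lost its call each time. Rpl7l1 and Rpl8 each lost theirs in 2 of these 3 fits (highest edgeR adjusted p 0.0536 and 0.0906). The count of called members fell to 3 without 3xU7snRNAOPT-SYFP2-H2B-BC of S40327 or without BORG-SYFP2-H2B-BC of S40317. In that S40317 block the Aqp4 sum held 10831 CPM of member reads, from nuclei above 0.3% mt- reads. Without such nuclei fewer than 3 blocks held both classes, and no fit was made. DESeq2 called 15 members here, 12 lower and 3 higher.

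For Mog minus Slc17a7 edgeR called 4 members, all lower, beside 23.2% of all genes, 21.4% lower. The members' median was -1.44 and that of all genes -2.72. Summed member CPM was higher in Mog in 2 of 3 blocks, with a mean log2 ratio of -0.04 (SD 0.44). Rpl6 stood at 0, 17.3 and 71.9 CPM in the Mog sums and at 67.6, 245 and 259 CPM in the Slc17a7 sums, lower in 3 of 3 blocks with a log2 difference of -3.79 (SE 1.26, edgeR adjusted p = 0.0218). Rpl39 was at 0 in all 6 Mog sums, but the paired Slc17a7 sums held 11 reads in all, so the difference was at least 9.38-fold (edgeR adjusted p = 0.027). Rpl8 had 12 reads in the paired Mog sums and 134 in the Slc17a7 sums, lower in 2 blocks and higher in 1 (edgeR adjusted p = 0.0302). The 6 Mog sums together held 388 Rpl8 reads with a highest sum of 219 CPM. The pooled class levels ran the other way, at 76.5 CPM in Mog and 45.5 CPM in Slc17a7 nuclei. Rpl7l1 was at 0 in all 6 Mog sums and at 2.88, 7.83 and 61.8 CPM in the paired Slc17a7 sums, at least 58-fold lower (edgeR adjusted p = 0.0306). The Mog calls were less stable than Rpl3 and Rps2 above: each of the 4 lost its call without at least 1 block, and in S40327 alone edgeR called 0 members. DESeq2 called 20, 17 lower and 3 higher.

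In both glial comparisons a smaller share of members than of all genes was called lower: 5 and 4 of 82 beside 20.8% and 21.4%. Other genes of the translation machinery are given by counts of genes called lower by edgeR. Of 16 translation factors with a TOP tract, 1 was lower in Aqp4 (Rack1) and 4 in Mog (Eif4b, Eif3e, Rack1, Pabpc1). Among 18 ribosome biogenesis genes 7 were lower in Aqp4 (Nop58, Rrp1, Polr1a, Wdr12, Nolc1, Nop2, Polr1b) and 2 in Mog (Polr1a, Wdr12). Polr1a and Polr1b encode the large subunits of RNA polymerase I, which transcribes ribosomal RNA, and Wdr12 acts in large-subunit processing. Of 78 mitochondrial ribosomal protein genes 15 and 14 were lower, and of 9 other translation factors 1 (Eef1a2, the neuronal and muscle form of the elongation factor) and 0. In each of the comparisons between neuronal classes edgeR called 0 genes of any of these 4 lists.

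**Figure D2:**
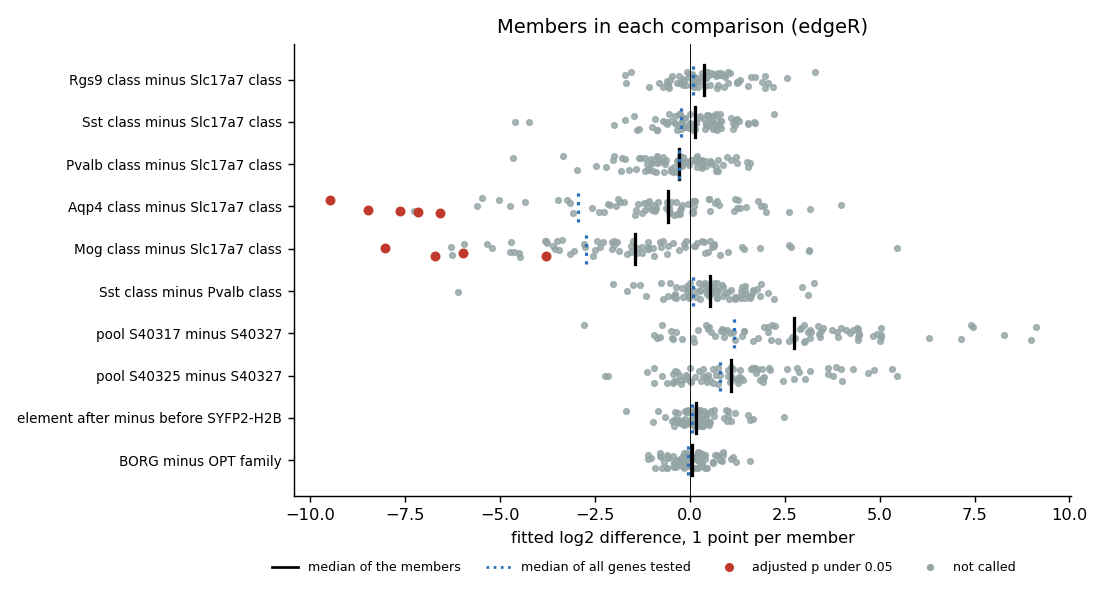
Fitted log2 difference of every tested member (1 point each) in the 10 comparisons, with the median of the members (solid bar) and of all genes tested (dotted bar), and members with an edgeR adjusted p under 0.05 in red. The red points lie in the Aqp4 and Mog rows, where the all-gene median is far below that of the members.

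Inside pool S40317 the summed level of the family differed between nuclei. Its 58 nuclei above 0.3% mt- reads held a median of 9914 CPM of member reads (2970 to 16188), and its other 48 nuclei 2612 CPM (607.9 to 4537). The former had reads for a median of 79 members, the latter for 19, and after thinning to 100000 reads for 77 and 18. The leading member of a nucleus held 4.30% of its member reads in the former and 16.7% in the latter. Detected genes moved along, with medians of 6256 and 3057. Leaving mt- reads out of the total changed the median of the nuclei above the threshold from 9914 to 10131 CPM. In the other pools, 14 nuclei of S40325 above the threshold had a median of 5258 CPM and 36 members, and 15 of S40327 had 3735 CPM and 23 members.

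**Figure D3:**
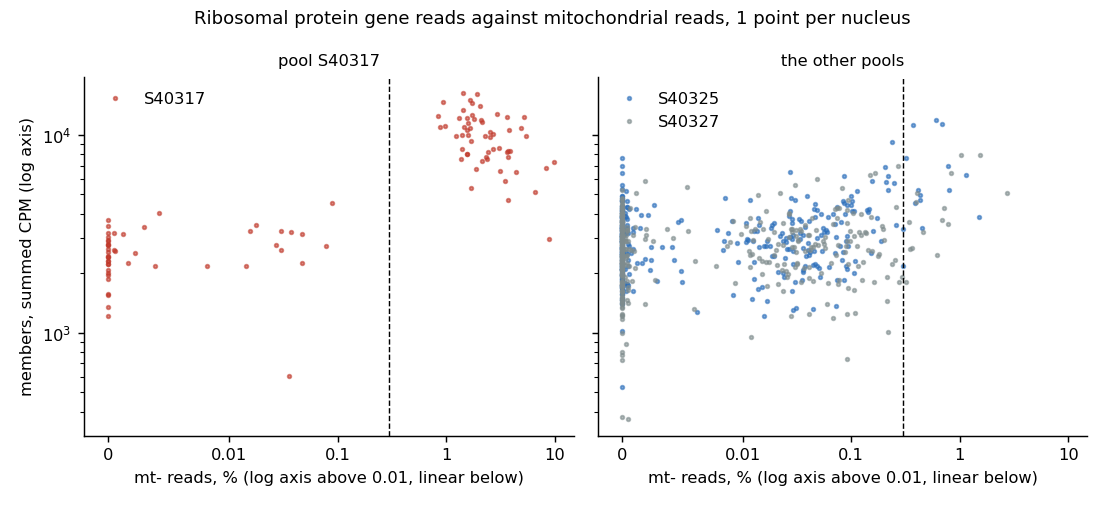
Summed member level of each nucleus (CPM, log axis) against the percentage of its reads from mt- genes (log axis above 0.01, linear below), for pool S40317 on the left and the other pools on the right, with a dashed line at 0.3%. In S40317 the nuclei form 2 separate clouds, with nearly all of those right of the line above 4000 CPM.

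The split was seen within the Pvalb, Slc17a7 and Sst classes of S40317. All 5 Aqp4 nuclei and 5 of 7 Sst nuclei were above the threshold, as were 7 of 16 Pvalb and 28 of 54 Slc17a7 nuclei. Pvalb nuclei above it had a median of 9812 CPM and the other 9 a median of 2418 CPM. Slc17a7 nuclei above it had a median of 9855 CPM (4672 to 16188) and the other 26 one of 2485 CPM (607.9 to 4020), with no overlap. S40317 held no Rgs9 or Mog nucleus. Across nuclei, Spearman's rho between summed member CPM and the mt- percentage was 0.73 over 54 Slc17a7 and 0.74 over 16 Pvalb nuclei of S40317, which share the library pool and form 2 clouds. The clouds differed in depth, with a median of 305544 reads in the Slc17a7 nuclei above the threshold and 203084 in the others. In the same 54 nuclei rho was 0.78 with genes detected and 0.57 with reads. For the classes in the other pools rho with the mt- percentage lay between -0.16 and 0.36, except 0.60 over the 25 Aqp4 nuclei of S40327.

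Labels followed the split. S40317 held 12 sets of 1 construct and 1 treatment code. In 5 sets (43 nuclei) every nucleus was above the threshold, with set medians of 8157 to 12514 CPM. In 4 sets (32 nuclei) none was, with set medians of 2245 to 2972 CPM, and 3 sets were mixed. The same construct appeared on both sides: 3xBORG-SYFP2-H2B-BC had 0 of 8 nuclei above with code AiP14796 (median 2972 CPM) and 8 of 8 with code AiP14798 (median 11036 CPM). SYFP2-H2B-3xBORG-BC had 0 of 8 with AiP14796 (2738 CPM) and 16 of 16 with AiP14798 (10895 CPM). No set of the other pools had all its nuclei above the threshold. What a treatment code stands for beyond the injected virus is not given in the sources used here, so virus, animal and preparation cannot be told apart.

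**Figure D4:**
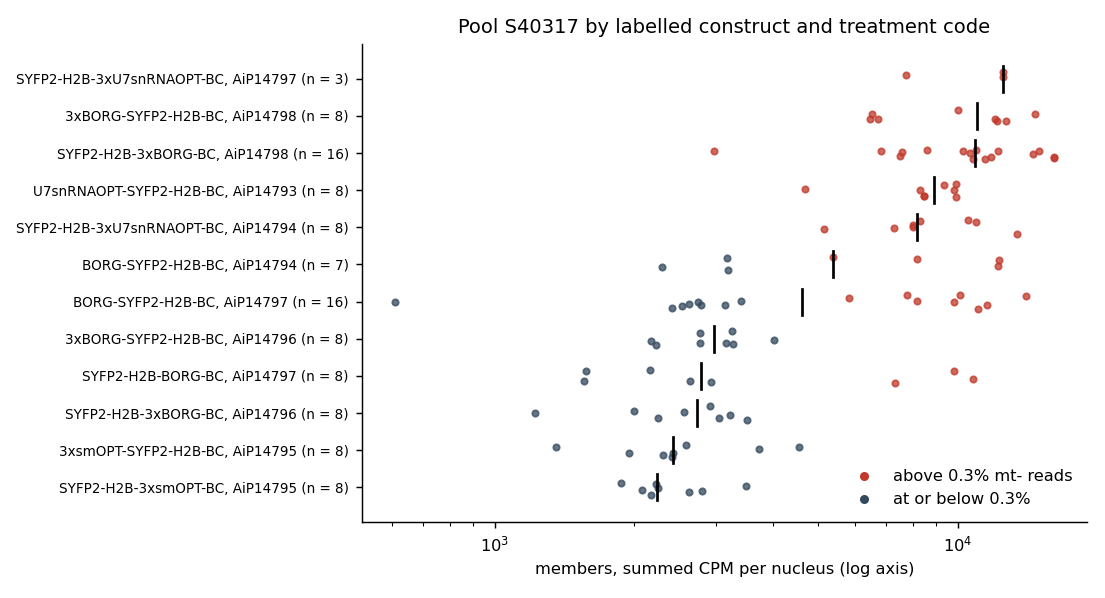
Summed member level per nucleus (CPM, log axis) for the 12 sets of construct and treatment code in pool S40317, ordered by set median (bar) and coloured by mt- reads. Sets with code AiP14798 lie entirely above the threshold and those with AiP14795 or AiP14796 entirely at or below it.

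Within the 54 Slc17a7 nuclei of S40317 the shift reached almost the whole family. These are nuclei divided by a measurement, not groups of the study, so values are given with no test. Of the 86 members 81 had a higher mean CPM in the 28 nuclei above the threshold than in the other 26, 4 had a lower mean, and Rpl10l had no read. Over all 16203 genes with a read in these nuclei, 55.9% had the higher mean above the threshold. Summed over the small-subunit genes, the mean level was 3728 CPM above the threshold and 834.9 CPM at or below it, and over the large-subunit genes it was 5672 and 1527 CPM. Of the members, 38 had reads in all 28 nuclei above the threshold, and the median member in 27 of them. Below it the median member had reads in 5 of 26 nuclei, and 81 members had a median of 0.

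Among members with more than 3 reads in the nuclei at or below the threshold, Rps3 had the highest ratio of the means, 102. It had reads in all 28 nuclei above the threshold (median 249 CPM, 23.9 to 468) and in 1 of 26 nuclei at or below it, giving means of 240 and 2.35 CPM. Rpl32 had means of 121 and 1.53 CPM, with reads in 28 of 28 and 2 of 26 nuclei. Rpsa, a small-subunit protein also known as the laminin receptor, had means of 73.6 and 2.82 CPM. Rps29, a zinc-binding small-subunit protein, had means of 169 and 7.84 CPM, with reads in 28 and 5 nuclei. The reads of Rps3 and Rpl32 came close to presence against absence, while the 5 nuclei of Rps29 were also the number of the median member.

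Rpl38, Rplp1 and Rpl41 were less close to absence at or below the threshold, though their means were still higher above it. Rpl38, a large-subunit protein known for its part in translating Hox mRNAs, had means of 233 and 51.9 CPM, and Rplp1 of 185 and 40.6 CPM. Rpl41 had means of 210 and 169 CPM and reads in 28 of 28 and 17 of 26 nuclei. Rpl5, which binds 5S ribosomal RNA, went the other way on the mean (72.9 against 96.9 CPM), though its median was 55.1 above the threshold and 2.42 below. Rpl6, Rpl7l1 and Rps19bp1 were the other 3 lower on the mean, at ratios of 0.870, 0.966 and 0.828. Rps16 and Rpl36al each had reads in 1 nucleus below the threshold, with means of 86.8 against 0.429 CPM and 105 against 0.644 CPM.

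Set beside the other pools, the member levels of the nuclei at or below the threshold were a median of 0.787 times those of the Slc17a7 nuclei there, and 56 of 84 members lay within 2 times. Rps3 stood at 38.4 CPM in the other pools, between the 2.35 and 240 CPM of the S40317 nuclei. The mean above the threshold was the higher one for 14 of 16 TOP translation factors, 62 of 78 mitochondrial ribosomal protein genes, 7 of 9 other translation factors and 10 of 18 ribosome biogenesis genes. Markers of other cells also differed between the same nuclei: astrocyte markers had a median summed level of 489 CPM above the threshold (20.4 to 2035, 2 of 6 at 0) and 162 CPM at or below it (0 to 1445, 3 of 6 at 0). Oligodendrocyte markers had medians of 61.2 (0 to 403, 2 of 6 at 0) and 19.99 CPM (0 to 685, 2 of 6 at 0), and excitatory markers of 1729 and 1272 CPM. The summed level of striatal projection neuron markers went the other way. Its medians were 333 CPM (0 to 1811, 2 of 8 at 0) above the threshold and 508 CPM (169 to 1905, 2 of 8 at 0) at or below it. Their detection did not: 6 of 8 striatal markers had reads in at least 25% of the nuclei above the threshold. At or below it, 2 of 8 did. The medians of interneuron, microglial and endothelial markers were 0 in both. The part of depth, detected genes, mt- reads and these markers in the member shift was not tested.

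**Figure D5:**
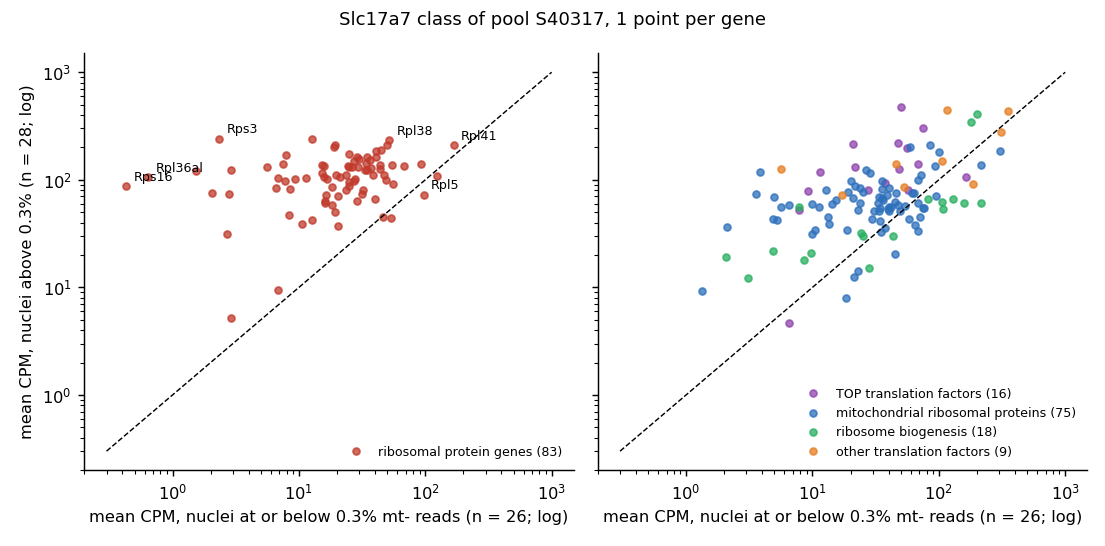
Mean CPM per gene in Slc17a7 nuclei of pool S40317 above 0.3% mt- reads (vertical, n = 28) against those at or below it (horizontal, n = 26), both log axes, with a dashed line of equal level. Nearly all ribosomal protein genes (left) lie above the line, as do most TOP translation factors and mitochondrial ribosomal protein genes (right), while the ribosome biogenesis genes lie on both sides of it.

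Pools were then compared within construct and class. S40317 minus S40327 over 4 blocks, all of the Slc17a7 class, gave 0 called members of 82 in edgeR, with 0.103% of all 11676 genes called. There were 2 members at an unadjusted p under 0.05, and DESeq2 called 0. The members' median difference was 2.74 beside 1.18 for all genes, with 72 members (87.8%) and 68.4% of all genes above 0. Summed member CPM in S40317 and S40327 was 2117 and 2262 for 3xsmOPT-SYFP2-H2B-BC, 2925 and 1947 for BORG-SYFP2-H2B-BC, 8156 and 3396 for SYFP2-H2B-3xBORG-BC, and 8880 and 3711 for SYFP2-H2B-3xU7snRNAOPT-BC. The last 3 blocks were higher in S40317. With nuclei above 0.3% mt- reads left out, the median member difference was 0.43 and that of all genes 0.00, over 3 blocks. Rpl34, Rps3a1 and Rps27l had the smallest p, each at 0 in the 4 S40327 sums and in 1 of 4 S40317 sums. Their S40317 medians were 45.1, 40.9 and 32.1 CPM, at least 62.3-, 63.2- and 30.1-fold higher pooled, all with an edgeR adjusted p of 1. Over all 15 S40327 sums of the fit the pooled levels were 25.2, 15.6 and 9.19 CPM, beside 65.6, 66.5 and 31.7 CPM over the 4 S40317 sums.

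S40325 minus S40327 over 11 blocks also gave 0 called members in edgeR, with 0.0257% of all genes called. At an unadjusted p under 0.05 there were 3 members, and DESeq2 called 7, all higher. The members' median was 1.08 beside 0.79 for all genes, and 1.97 within the Rgs9 class and 0.20 within the Sst class. Summed member CPM was 2202 to 3862 (median 3026) in S40325 and 1679 to 4001 (median 2483) in S40327, higher in 9 of 11 blocks. Rpl9, a large-subunit protein, was at 12.6 to 329 CPM (median 32.3) in S40325 sums and at 0 in 6 of 11 S40327 sums (highest 288 CPM). It was higher in 8 of 11 blocks with overlapping groups, log2 difference 4.70 (SE 2.05), edgeR adjusted p = 0.941. Pooled over these sums the direction was the opposite, with 46.1 CPM in S40325 and 63.3 CPM in S40327. Rps15a (log2 5.33, higher in 9 of 11 blocks) had the same edgeR adjusted p.

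Constructs were compared in S40327, the pool that held all 12 element constructs. Their sums of 15 to 40 nuclei held 2532 to 3258 CPM of member reads. With the element after SYFP2-H2B the sums were 2548 to 3258 CPM and before it 2532 to 2896 CPM, higher after in 4 of 6 elements, with a mean log2 ratio of 0.07 (SD 0.10, n = 6). edgeR called 0 of 83 members and 0.00% of 12002 genes. At an unadjusted p under 0.05 there was 1 member, and DESeq2 called 0. Rps21, a small-subunit protein, was at 2.95 to 37 CPM (median 16.4) with the element after and 26 to 84.3 CPM (median 49.2) with it before, so the groups overlapped. The values were lower after in 5 of 6 elements, log2 difference -1.68 (SE 0.83), edgeR adjusted p = 0.999. Rps13 was higher after in 4 of 6 elements (log2 0.96), with the same edgeR adjusted p.

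The BORG family (4 constructs) against the OPT family (8) likewise gave 0 called members of 83 in edgeR and 0.00% of 13462 genes. No member had an unadjusted p under 0.05, and DESeq2 called 0. The members' median was 0.06 beside -0.04 for all genes. Summed CPM was 2532 to 2948 in BORG and 2548 to 3258 in OPT sums. Rps10 was at 19 to 53.8 CPM in BORG and 4.03 to 27.4 CPM in OPT sums, log2 difference 1.58 (SE 0.76), with an edgeR adjusted p of 1. Rps2 was at 16.8 to 24.6 CPM in BORG and 21.7 to 64.7 CPM in OPT sums, with a log2 difference of -1.03 that turned to 0.31 when all pools were used.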

How the data were processed

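The authors' deposited table holds raw read counts per gene, with 1 nucleus per column and no molecular identifiers. The submitters' processing notes name the aligner STAR (2.7.2a) and the genome build mm10. The counting step, its annotation and the treatment of intronic reads are not given in the sources used here. Of 2501 columns, 904 carry the library name of a sample and were used, and 1597 were not used. Members and gene lists were chosen with earlier results of these data known.

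Counts were divided by the total of all genes to give CPM. RPKM used the union of exon lengths in GENCODE vM21 (the same build, GRCm38). Class rules were Rgs9 at 20 CPM or more with Slc17a7 under 20, Sst at 100 or more, Pvalb at 20 or more with Sst under 100, Slc17a7 at 50 or more, and Aqp4 or Mog at 20 or more. Nuclei meeting several rules (92) or none (117) entered no class comparison. No doublet caller was run, and some nuclei meeting several rules may be doublets. Counts of at least 3 nuclei of 1 construct, pool and class were summed (536125 to 12096272 reads per sum in the class comparisons) and tested with edgeR 4.0.16 (TMM, filterByExpr, quasi-likelihood F test, Benjamini-Hochberg threshold 0.05 over all genes). The block was construct and pool for classes, construct and class for pools, the element for its position, and none for families. The trend of the dispersion was taken from every 10th gene in order of abundance to keep the run time short. This was chosen after the counts of calls under several ways had been seen. Alternatives were RLE scaling, DESeq2 1.42.0, no filter, other nuclei and sum minimums, the treatment code as sample, mt- genes or nuclei above 0.3% mt- reads left out, single pools or classes, and leaving out each block. Added after seeing the data were leaving out S40317 and the dispersion of edgeR 4. The linear algebra library was set to 1 processor type, because the numbers of genes DESeq2 called moved slightly with it. The fits were tested on simulated data, with 200 of the genes changed by known amounts.

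Named genes were up to 5 called members per direction with the smallest p in a comparison, or the 3 with the smallest p where none was called, a fixed set of 27 members by role, and the 5 highest and 5 lowest members by RPKM. Other members named for the S40317 split and the pooled class levels were chosen after their values were seen. Some genes that the rule names are not reported here. Sequences are from RefSeq promoter entries. Intervals and limits from counts cover counting error only.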

Additional observations from a re-analysis of the deposited data

How the results depend on the processing

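No paired analysis was possible because the replicate numbers in the titles only count nuclei of a construct, and these nuclei were summed. The blocks of construct, pool, class or element pair the sums in another way, and every reported fit but that of the families has one. Of 130 alternative values of the 10 counts of called members, 114 were 0 beside a count of 0 or within 1.5 times of the reported count. DESeq2 gave the most that moved: 1 called member for Rgs9, 2 for Sst and 2 for Pvalb minus Slc17a7, 15 for Aqp4 and 20 for Mog minus Slc17a7, 2 for Sst minus Pvalb and 7 for S40325 minus S40327. Keeping nuclei that met several class rules gave 8 for Aqp4 and 7 for Mog. For Mog the count was 2 with RLE scaling, 2 with no filter on low counts, 7 with the treatment code as sample and 0 in S40327 alone. Leaving out 1 block at a time gave 3 to 4 for Aqp4 and 2 to 6 for Mog, the 2 without SYFP2-H2B-3xU7snRNAOPT-BC of S40327, and 0 where the reported count was 0 in the pool, position and family comparisons so tested. The cause of these moves was not tested, and the share of all genes called under each alternative is not given here. Rps2 in BORG minus OPT turned from a log2 difference of -1.03 to 0.31 with all pools. RLE scaling moved the all-gene median of Rgs9 minus Slc17a7 from 0.08 to -0.11 and that of the members from 0.38 to 0.11. Not run for lack of 3 blocks were, for Aqp4, the fits of sums of at least 5 nuclei, of nuclei with at least 2000 genes, without nuclei above 0.3% mt- reads, without S40317 and within single pools, and some of these for the other comparisons.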
